A study of Mus musculus with 4 samples.

Results

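Expression of 10 genes of transforming growth factor beta (TGF-beta) and bone morphogenetic protein (BMP) signalling was followed in mouse DFAT cells, the de-differentiated fat cells that arise when mature fat cells lose their lipid in culture. The genes were chosen by name, as every probe set whose single platform symbol was Tgfb1, Tgfb2, Tgfb3, Inhba, Bmp4, Tgfbr1, Tgfbr2, Smad7, Tgfbi or Id1, which gave 23 of 45101 probe sets and 10 of 18193 named genes. The names were picked with earlier results of these data known. Counts set beside the share of all genes are therefore a description. Total RNA had been hybridised to single-colour Affymetrix arrays, 1 array per group, from cells treated with Y-27632 (a compound that blocks the ROCK kinases behind actomyosin contraction), cells treated with the solvent DMSO, cells transfected with Mkl1 siRNA and cells transfected with Control siRNA. Mkl1, now named Mrtfa, encodes a coactivator of the DNA-binding factor SRF that is held inactive by free actin. All groups shared Dulbecco's modified Eagle's medium with fetal bovine serum, and the labels give no dose, duration, siRNA sequence or origin of the cells. With 1 array per group there is no replicate spread, so every difference below lacks a replicate check, no p-value is given, and precision is limited by how few arrays there are. Values are log2 signals from RMA, a method that corrects background, quantile-normalises the arrays and summarises the probes of a probe set, and a difference of 1 is a 2-fold ratio. A gene was represented by its probe set with the highest mean and was analysed when at least 1 array reached 5.69, the midpoint of all signals in the data (their median). Of the 10 genes 9 passed, Bmp4 did not, and 17 of the 23 probe sets passed on their own.

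TGF-beta ligands are secreted in a latent form and, once released, bring together a type II and a type I receptor, and the type I receptor then phosphorylates the transcription factors SMAD2 and SMAD3. BMP ligands use related receptors and SMAD1, SMAD5 and SMAD9, and the Id genes are classic targets of that branch. In fat cell progenitors, TGF-beta and activin are known to restrain fat cell formation and TGF-beta promotes a contractile, matrix-producing state, whereas BMP4 favours commitment to the fat lineage.

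Across all arrays, pairwise Pearson correlations over probe sets ran from 0.987 to 0.995, and array medians from 5.67 to 5.71. Mrtfa, the siRNA's target, has 1 probe set, with a log2 signal of 7.70 with Mkl1 siRNA and 8.55 with Control siRNA, a ratio of 0.554, and it stood at 8.18 with Y-27632 and 8.32 with DMSO. Its relative Mrtfb differed by 0.05 with Mkl1 siRNA on the used probe set, and the 3 Mrtfb probe sets ran from -0.16 to 0.22. The 2 probe sets of Srf, the partner of Mrtfa, differed by -0.49 and -0.24 with Mkl1 siRNA. Of 10 listed fibroblast or preadipocyte markers 9 passed the filter, and they did not behave alike. Pdgfra (12.68 to 12.79), Pdgfrb, Thy1, Vim and S100a4 stood above 12 on all 4 arrays, while Dlk1 and Dpp4 lay near the filter. Cd34 had 6.36 with Y-27632 and 4.57 with DMSO, and 3.53 with Mkl1 siRNA and 5.36 with Control siRNA, so 3 of 4 arrays were below the filter and the differences were 1.79 and -1.82. Fap stood 1.11 higher with Y-27632 than with DMSO. Of the 9, 5 stood above DMSO with Y-27632 (median 0.0023), and 8 stood below Control siRNA with Mkl1 siRNA (median -0.20). Their summed linear signal was 53636 with Y-27632 and 56246 with DMSO, and 53734 with Mkl1 siRNA and 63485 with Control siRNA. The leukocyte gene Ptprc (3.33 to 3.48), the endothelial gene Pecam1 (3.53 to 3.77) and the myoblast gene Myod1 (3.99 to 4.23) lay below the filter on every array. Other genes of those lists passed it: Csf1r (6.38 to 6.45) and Cd14 (7.28 to 7.98) of 6 leukocyte markers, Kdr (5.58 to 5.79) of 5 endothelial ones and Des (8.01 to 8.17) of 5 myoblast ones. Cd14 stood 0.70 higher with Control siRNA than with DMSO, and these 4 genes differed by no more than 0.2 in size in either treatment comparison. The 7 analysed mature adipocyte markers of 10 listed all stood higher with Y-27632 than with DMSO, with differences of 0.25 to 3.55. They also all stood higher with Mkl1 siRNA than with Control siRNA, with differences of 0.25 to 3.83. The summed linear signal of the 8 adipocyte markers on the array was 54370 with Y-27632 and 24989 with DMSO. It was 58639 with Mkl1 siRNA and 25638 with Control siRNA. Of these 8, Lep lay below the filter on every array (3.22 to 3.62). It differed by 0.06 with Y-27632 and by -0.40 with Mkl1 siRNA. The part of these marker differences in the values that follow was not tested, and in bulk RNA fewer cells of a type and less RNA per cell cannot be told apart. Control probe sets for 18S ribosomal RNA differed by a median of -0.48 in both treatment comparisons, against 0.15 between Control siRNA and DMSO, and the 5 prime Actb control probe set differed more than the 3 prime one, by -0.42 and -0.16 with Y-27632 and by -0.22 and -0.07 with Mkl1 siRNA (0.03 and -0.0046 between Control siRNA and DMSO). The part of both in the results was not tested either.

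With Mkl1 siRNA, Inhba was the member furthest below Control siRNA, and Tgfb2, Tgfbr2 and Tgfbi also stood lower, each by more than 0.5. Against DMSO, Inhba stood at -0.83, Tgfb2 at -0.07, Tgfbr2 at -0.55 and Tgfbi at -0.21. These 4 genes were picked because they lay below Control siRNA together, and the targeted coactivator acts through a DNA-binding partner. The windows around their start sites (250 bases before to 50 after, RefSeq, GRCm38.p6) are shown. They lie at chr13:16011601-16011900 (plus strand), chr1:186705940-186706239 (minus strand), chr9:116175314-116175613 (minus strand) and chr13:56609336-56609635 (plus strand). Capitals mark exact matches on either strand to CAGAC or its reverse complement GTCTG (a core bound by SMAD proteins), GGCGCC (a GC-rich SMAD core) and TATAAA (the TATA box).
Inhba: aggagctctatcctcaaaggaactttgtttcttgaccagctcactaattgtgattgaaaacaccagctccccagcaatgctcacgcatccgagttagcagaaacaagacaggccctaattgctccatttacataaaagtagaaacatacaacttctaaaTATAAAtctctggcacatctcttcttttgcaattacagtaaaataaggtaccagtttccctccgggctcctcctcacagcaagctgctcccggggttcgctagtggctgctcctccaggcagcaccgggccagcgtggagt
Tgfb2: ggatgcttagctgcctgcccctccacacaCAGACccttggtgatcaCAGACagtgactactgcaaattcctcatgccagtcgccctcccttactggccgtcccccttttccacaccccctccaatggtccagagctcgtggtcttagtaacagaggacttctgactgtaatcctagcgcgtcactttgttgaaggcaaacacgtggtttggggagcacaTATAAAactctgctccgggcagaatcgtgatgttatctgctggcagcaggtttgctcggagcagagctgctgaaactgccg
Tgfbr2: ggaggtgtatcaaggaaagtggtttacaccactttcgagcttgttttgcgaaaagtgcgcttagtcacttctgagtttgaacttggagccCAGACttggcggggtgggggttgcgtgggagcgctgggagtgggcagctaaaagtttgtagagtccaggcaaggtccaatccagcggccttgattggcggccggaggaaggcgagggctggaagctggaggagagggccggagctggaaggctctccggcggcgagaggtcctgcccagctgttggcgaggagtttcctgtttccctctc
Tgfbi: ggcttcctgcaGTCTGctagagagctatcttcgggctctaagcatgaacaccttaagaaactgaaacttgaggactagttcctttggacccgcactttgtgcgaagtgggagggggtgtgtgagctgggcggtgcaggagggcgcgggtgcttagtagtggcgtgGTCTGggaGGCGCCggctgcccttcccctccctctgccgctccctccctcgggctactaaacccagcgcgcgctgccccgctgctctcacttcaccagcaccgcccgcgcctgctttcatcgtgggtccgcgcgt
The search covered both strands and also took in the AP-1 motif TGANTCA, the TEAD motif GGAATG and the CArG box bound by SRF, and no match of one motif overlapped a match of another in these windows. The CAGAC core was found 2 times in Tgfb2, 2 times in Tgfbi, 1 time in Tgfbr2 and not in Inhba; 49.6% of 32851 mouse windows of this length hold it. TATAAA was found in Tgfb2, beginning at position -31 from the start site, and in Inhba, beginning at position -91, against 13.6% of all windows. GGCGCC was found in Tgfbi, against 11.9%. Neither CArG (1.63% of all windows), TGANTCA (7.81%) nor GGAATG (14.7%) was found in the 4 windows. Among the other members with a window, Tgfb1 and Bmp4 held none of the motifs searched. Tgfbr1 held GGCGCC in 1 window and CAGAC in its other. A match is only a description of these letters, and windows of this length say nothing of sites further away.

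Among the ligands, the 3 TGF-beta isoforms did not share a pattern. Tgfb1, the isoform most widely expressed in adult tissues, had log2 signals of 5.97 with Y-27632 and 5.90 with DMSO, and 5.86 with Mkl1 siRNA and 5.75 with Control siRNA. These lie just above the filter, where RMA compresses differences, and the 4 arrays spanned 0.22. Tgfb1 differed by 0.07 with Y-27632 and by 0.11 with Mkl1 siRNA, both smaller in size than the -0.15 between Control siRNA and DMSO.

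Tgfb2, an isoform with wide roles in development, had 8.47 with Y-27632 and 8.35 with DMSO, and 8.28 with Mkl1 siRNA and 8.85 with Control siRNA. The Control siRNA array was the high one, 0.50 above DMSO, and the other 3 arrays lay close together. All 4 Tgfb2 probe sets were lower with Mkl1 siRNA than with Control siRNA, with differences of -0.65 to -0.38 and the used probe set at -0.57 (a ratio of 0.674). Against DMSO the Mkl1 siRNA value was -0.07. With Y-27632 the 4 probe sets ran from -0.21 to 0.12 against DMSO and did not share a sign.

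Tgfb3, the remaining isoform, was read by 1 probe set, at 8.41 with Y-27632 and 8.45 with DMSO, and at 8.99 with Mkl1 siRNA and 9.15 with Control siRNA. Both transfected arrays stood above both others, and Tgfb3 had the largest difference between the controls among the 9 analysed members, 0.71. Within each treatment comparison it differed by -0.03 and -0.16.

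Inhba encodes the beta A subunit, whose homodimer is activin A, a ligand that signals through SMAD2 and SMAD3. Its log2 signal was 10.30 with Y-27632 and 10.65 with DMSO, and 9.82 with Mkl1 siRNA and 11.02 with Control siRNA. Mkl1 siRNA gave the lowest of the 4 values and Control siRNA the highest. The difference was -1.20 with Mkl1 siRNA (a ratio of 0.435) and -0.35 with Y-27632 (0.784), beside 0.37 between Control siRNA and DMSO. Set against DMSO, Mkl1 siRNA stood at -0.83, short of 2-fold. The second Inhba probe set lay below the filter on all arrays, between 3.96 and 4.40, and differed by -0.20 with Mkl1 siRNA, so that the mean of both was -0.70.

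Bmp4, the BMP ligand of the group, was read by 1 probe set below the filter, at 3.98 with Y-27632 and 4.07 with DMSO, and at 4.27 with Mkl1 siRNA and 4.45 with Control siRNA. At this level its differences (-0.09 and -0.18) cannot be read as a response, and it is not in any count here.

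**Figure D1:**
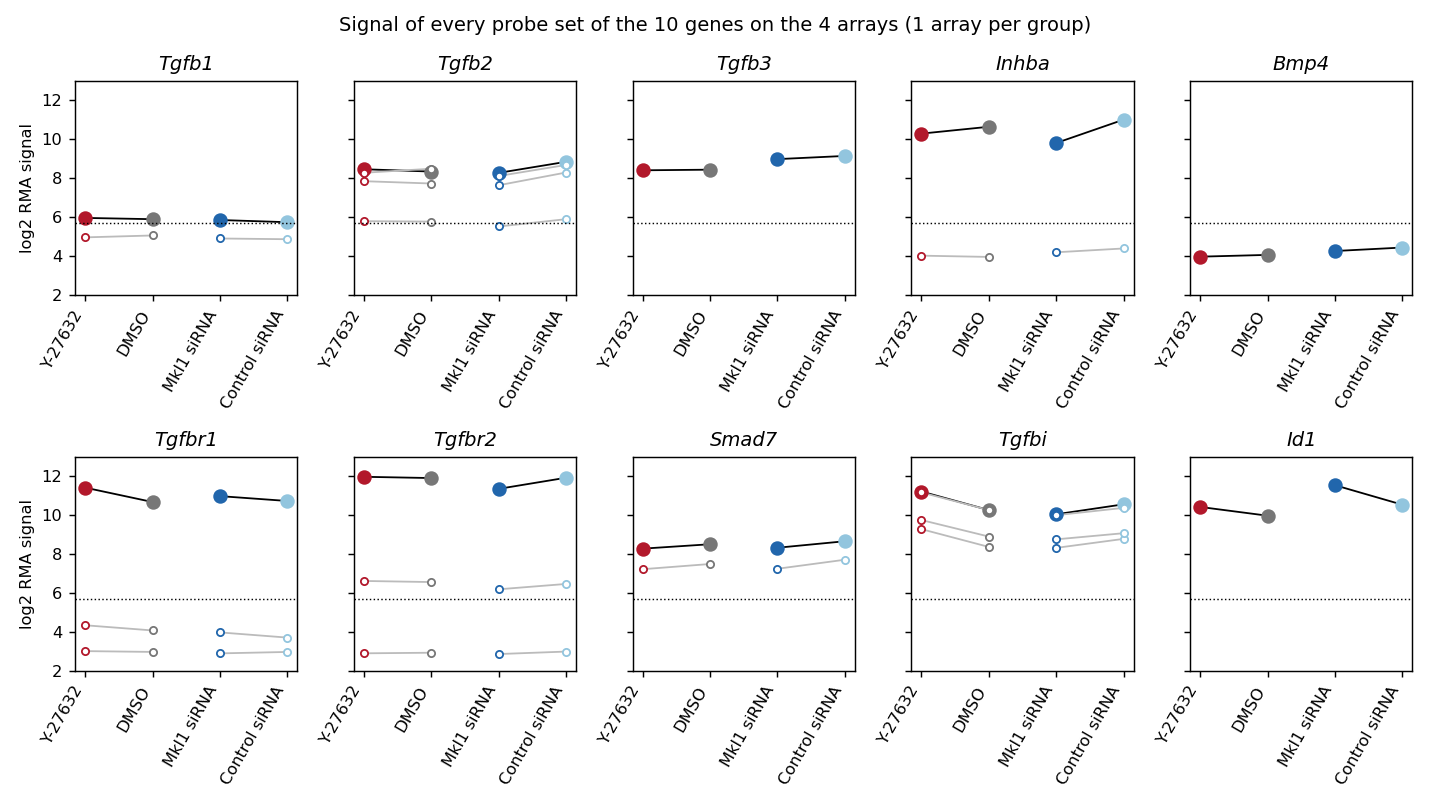
Log2 RMA signal (y axis) of all 23 probe sets of the 10 genes on the 4 arrays (x axis, 1 array per group); large filled points are the probe set used for the gene, small open points the others, lines join a treatment to its own control, and the dotted line is the filter at 5.69. Inhba was lowest at 9.82 with Mkl1 siRNA, Id1 highest at 11.54 with Mkl1 siRNA, Tgfbi highest at 11.21 with Y-27632, and Bmp4 lay below the filter on every array.

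The receptors had different profiles over the 4 arrays. Tgfbr1, the type I receptor kinase, had 11.41 with Y-27632 and 10.67 with DMSO, and 10.98 with Mkl1 siRNA and 10.73 with Control siRNA. Y-27632 gave the highest value, 0.74 above DMSO (a ratio of 1.67), where the control arrays differed by 0.05. Against Control siRNA the Y-27632 difference was 0.69. With Mkl1 siRNA Tgfbr1 stood 0.25 higher. Its other 2 probe sets lay below the filter and differed by 0.04 and 0.27 with Y-27632.

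Tgfbr2, the type II receptor that binds TGF-beta first, had 11.97 with Y-27632 and 11.90 with DMSO, and 11.35 with Mkl1 siRNA and 11.92 with Control siRNA. Here the Mkl1 siRNA array alone was low, and the other 3 lay within 0.06 of each other. The difference with Mkl1 siRNA was -0.57 (a ratio of 0.673), or -0.55 against DMSO, and it was 0.06 with Y-27632. A second probe set above the filter differed by -0.28 with Mkl1 siRNA and 0.06 with Y-27632, and the last one, below it, by -0.13 and -0.03.

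Smad7 encodes an inhibitory SMAD that blocks the type I receptor and is itself induced by TGF-beta. It had 8.28 with Y-27632 and 8.50 with DMSO, and 8.32 with Mkl1 siRNA and 8.66 with Control siRNA, so both treated arrays lay below both control arrays. Smad7 stood at -0.23 against DMSO with Y-27632 and at -0.33 against Control siRNA with Mkl1 siRNA, and its second probe set gave -0.27 and -0.46. Both are under 1.5-fold.

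Tgfbi, a secreted matrix protein named for its induction by TGF-beta, had 11.21 with Y-27632 and 10.26 with DMSO, and 10.04 with Mkl1 siRNA and 10.55 with Control siRNA. It stood on opposite sides of its control in the 2 treatments, 0.95 higher with Y-27632 (a ratio of 1.94) and at -0.51 with Mkl1 siRNA (0.702). All 4 probe sets gave both signs, from 0.85 to 0.95 with Y-27632 and from -0.51 to -0.32 with Mkl1 siRNA. Between Control siRNA and DMSO they ran from 0.11 to 0.41. With the control arrays exchanged, Tgfbi stood 0.66 above Control siRNA with Y-27632 and at -0.21 against DMSO with Mkl1 siRNA.

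Id1 encodes an inhibitor of basic helix-loop-helix transcription factors and is a direct BMP target. Its single probe set had 10.42 with Y-27632 and 9.97 with DMSO, and 11.54 with Mkl1 siRNA and 10.54 with Control siRNA. Mkl1 siRNA gave the highest value, DMSO the lowest, and the range of 1.57 was the widest of the 9 analysed members. Id1 stood 1.001 higher with Mkl1 siRNA than with Control siRNA (a ratio of 2.002), at the edge of the 2-fold threshold (0.996, just short of it, after loess scaling), and 0.45 higher with Y-27632 than with DMSO. Control siRNA itself stood 0.57 above DMSO, so that Mkl1 siRNA was 1.57 above DMSO, whereas Y-27632 was at -0.11 against Control siRNA. That probe set has a name ending in _a_at, which marks probes that bind several transcripts of a gene.

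**Figure D2:**
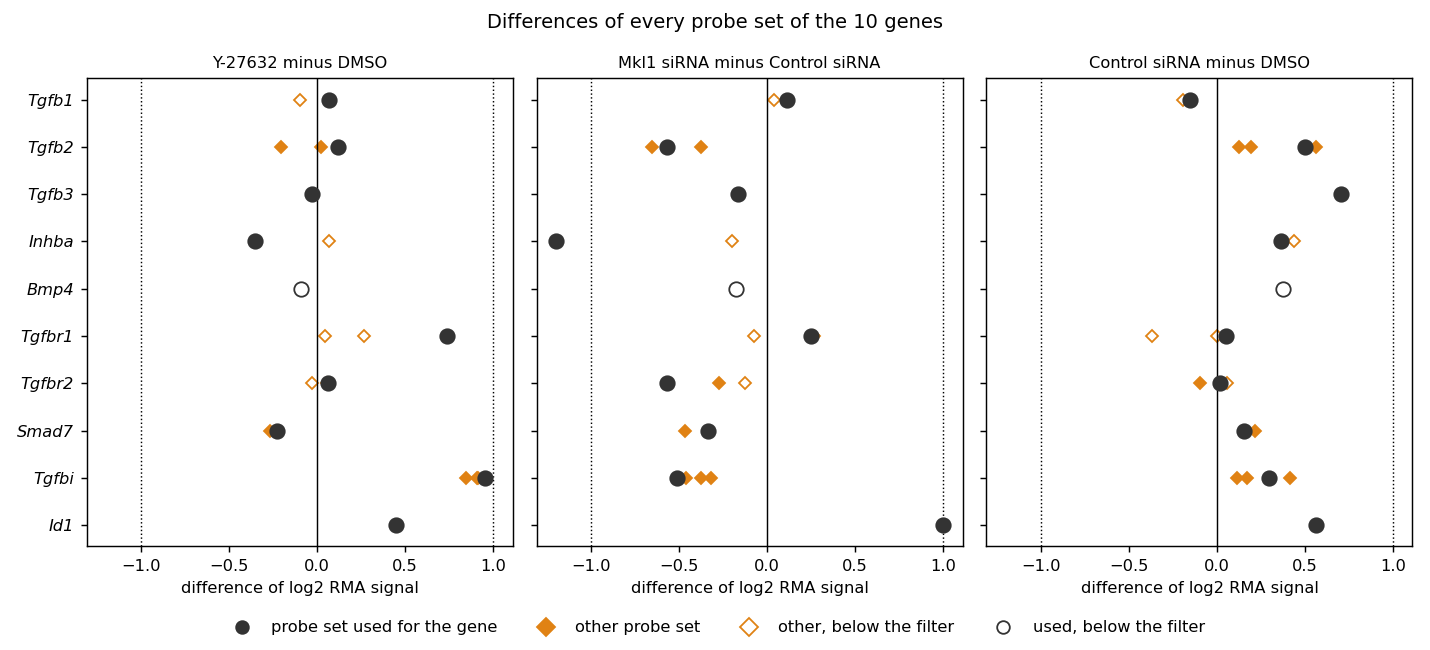
Difference of log2 RMA signal (x axis) of each of the 23 probe sets of the 10 genes (rows) in 3 panels, with Y-27632 set against DMSO (left), Mkl1 siRNA set against Control siRNA (middle) and Control siRNA set against DMSO (right); black circles are the probe set used for the gene, orange diamonds the others, open symbols lie below the filter, and dotted lines mark 2-fold. Inhba at -1.20 and Id1 at 1.001 with Mkl1 siRNA reach 2-fold, and the 4 Tgfbi probe sets stand together, between 0.85 and 0.95, with Y-27632.

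Counted at 2-fold, none of the 9 analysed members stood higher or lower with Y-27632 than with DMSO, where 1.27% of 11600 genes were higher and 0.224% lower (1.49% in either direction). At 1.5-fold, Tgfbr1 and Tgfbi were higher and none was lower, beside 3% and 1.33% of all genes (4.33% in either direction). With Mkl1 siRNA, Id1 was 2-fold higher and Inhba 2-fold lower than with Control siRNA, against 1.79% and 1.74% of all genes (3.53% in either direction). At 1.5-fold the same 2 genes were counted, against 5.42% and 5.91% (11.3% in either direction). Between Control siRNA and DMSO no member reached 2-fold, where 0.957% of genes were higher and 1.09% lower (2.04% in either direction). Tgfb3 was at least 1.5-fold higher and no member lower, beside 3.42% and 4.09% (7.52% in either direction). A count of 2 of 9 rests on few genes and, for Id1, on a value at the threshold.

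Below the threshold, 6 of 9 members stood above DMSO with Y-27632 (median 0.07), beside 50.4% of all genes (median 0.0023). With Mkl1 siRNA 6 of 9 stood below Control siRNA (median -0.33), beside 49.8% of all genes (median 0.00055). The 2 treatment comparisons share no array, and 6 of 9 members had the same sign in both, beside 57.6% of all genes; Tgfb2, Tgfbr2 and Tgfbi did not. Control siRNA stood above DMSO for 8 of 9 members (median 0.30), all but Tgfb1, beside 48.5% of all genes (median -0.0089). Control siRNA was also the highest of the 4 arrays for 4 of the 9, beside 23.8% of all genes. Exchanging the control array therefore shifts every member by its difference between the controls. Against DMSO, Mkl1 siRNA stood at -0.04 for Tgfb1 and 0.54 for Tgfb3, both with the opposite sign, and at -0.07 for Tgfb2, -0.18 for Smad7, -0.21 for Tgfbi and -0.83 for Inhba, all smaller in size. It stood at -0.55 for Tgfbr2, 0.30 for Tgfbr1 and 1.57 for Id1. Against Control siRNA, Y-27632 stood at -0.38 for Tgfb2 and -0.11 for Id1, both with the opposite sign. Tgfb3 at -0.74 and Inhba at -0.72 were then more than 1.5-fold lower, Smad7 was at -0.38, and Tgfbi at 0.66, Tgfbr1 at 0.69, Tgfb1 at 0.22 and Tgfbr2 at 0.05 kept their sign.

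**Figure D3:**
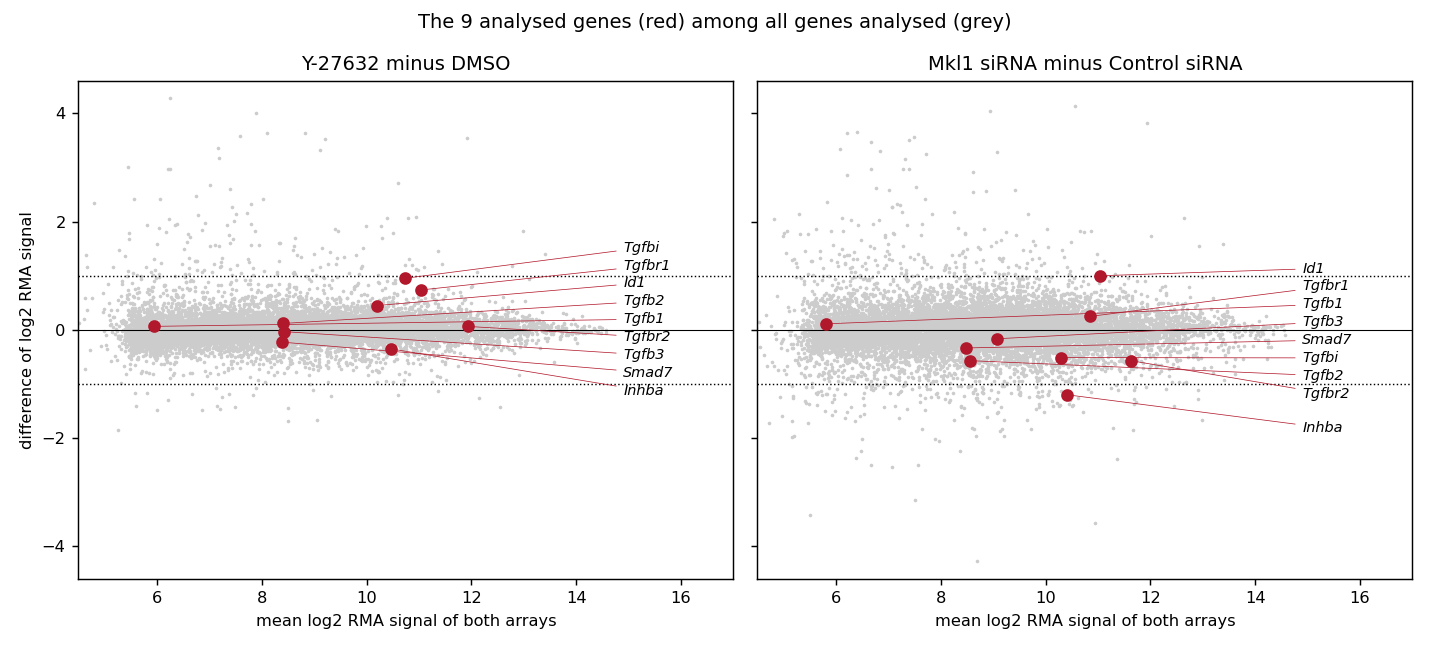
Difference of log2 RMA signal (y axis) against the mean log2 signal of both arrays (x axis) with Y-27632 set against DMSO (left) and Mkl1 siRNA set against Control siRNA (right); each grey point is 1 of 11600 analysed genes, the 9 analysed members are red, and dotted lines mark 2-fold. With Y-27632 Tgfbi and Tgfbr1 are the highest members, at 0.95 and 0.74, and with Mkl1 siRNA only Id1 and Inhba reach the dotted lines.

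Genes nearest in pattern were sought for the 3 members of widest range, by the Euclidean distance over the 4 arrays of each gene's signals minus its own mean, among 11599 other genes. For Id1 these were Ankrd44 (distance 0.13) and Fam43a (0.15), for Inhba they were Bdnf (0.065) and Pknox2 (0.082), and for Tgfbi they were Cdh11 (0.17) and Mmp9 (0.18). Bdnf, for example, had 8.93 with Y-27632 and 9.27 with DMSO, and 8.44 with Mkl1 siRNA and 9.72 with Control siRNA. Mmp9 reached the filter only with Y-27632, at 6.02, and had 5.24 with DMSO, 5.02 with Mkl1 siRNA and 5.36 with Control siRNA. With so few arrays many genes come close by necessity, so the distances are a description. Among the members themselves, Tgfb2 and Smad7 were closest (0.30) and Inhba and Id1 furthest apart (1.88).

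Around these members, 98 further genes of the pathway were listed by role, and 75 of them were analysed; a gene with more than 1 role is in more than 1 list. Like the members, the lists were drawn up with earlier results of these data known, so their counts are a description. With Y-27632, Inhbb, Bmper and Id2, 3 of the 75, stood 2-fold or more above DMSO, and 2 (Ccn2 and Tagln) stood 2-fold or more below it (1.27% and 0.224% of all genes). With Mkl1 siRNA, 2 (Chrdl1 and Id2) stood 2-fold or more above Control siRNA, and Rgmb, Itgb3, Col1a1, Timp1 and Nox4, 5 in all, as far below it (1.79% and 1.74%). Between Control siRNA and DMSO, 7 of the 75 stood 2-fold or more higher and 3 as far lower (0.957% and 1.09% of all genes). The medians of the 75 were 0.01 with Y-27632, -0.07 with Mkl1 siRNA and 0.12 between the controls.

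Of 7 analysed ligands besides the members, only Inhbb reached 2-fold in a treatment comparison. It encodes the beta B subunit of activin B, and its signal was 9.13 with Y-27632 and 7.53 with DMSO, and 9.98 with Mkl1 siRNA and 9.51 with Control siRNA. DMSO was the low array, and Inhbb stood 1.60 higher with Y-27632 than with DMSO but at -0.38 against Control siRNA. Its second probe set differed by -0.06 with Y-27632. The other analysed ligands lay between 5.57 (Lefty1) and 6.98 (Bmp7), near the filter or somewhat above it, where differences may be compressed. With the filter at the 75th percentile, 1 of the 7 was left. Of the 7, 4 stood above DMSO after Y-27632 (list median 0.02) and 3 stood above Control siRNA after Mkl1 siRNA (list median -0.0034).

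Of 12 analysed receptors and coreceptors, Rgmb, a BMP coreceptor, was the only one at 2-fold. It had 9.93 with Y-27632 and 9.49 with DMSO, and 8.25 with Mkl1 siRNA and 9.30 with Control siRNA, a difference of -1.05 with Mkl1 siRNA. Its 6 probe sets ran from -1.05 to 0.01 there, with a mean of -0.60. Of the 12, 7 stood above DMSO after Y-27632 (list median 0.02) and 6 stood above Control siRNA after Mkl1 siRNA (list median 0.0013).

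None of the 14 analysed SMADs and intracellular regulators reached 2-fold in either treatment comparison. The furthest with Mkl1 siRNA were Smad6, an inhibitory SMAD of the BMP branch, at 0.66, Pmepa1, a TGF-beta-induced inhibitor of the pathway, at -0.56, and Skil, a SMAD corepressor, at -0.37. Smad6 had 7.56 with Y-27632 and 7.31 with DMSO, and 9.29 with Mkl1 siRNA and 8.64 with Control siRNA, so that both transfected arrays stood above both others. The SMADs that carry the signal, Smad1 to Smad5, lay between -0.06 and 0.12 with Y-27632, and between -0.23 and 0.21 with Mkl1 siRNA.

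Of 19 analysed extracellular regulators, Chrdl1, a secreted BMP antagonist of the chordin family, showed the largest difference with Mkl1 siRNA. It had 7.23 with Y-27632 and 6.62 with DMSO, and 8.76 with Mkl1 siRNA and 5.79 with Control siRNA. The Mkl1 siRNA array was the highest of the 4, by 2.98 over Control siRNA and by 2.14 over DMSO, and its 4 probe sets ran from 1.63 to 2.98 against Control siRNA. Itgb3, an integrin subunit that takes part in releasing latent TGF-beta, had 7.25 with Mkl1 siRNA and 8.34 with Control siRNA, a difference of -1.09, but its second probe set gave -0.34 and the Mkl1 siRNA value was -0.16 against DMSO. Bmper, another extracellular BMP modulator, had 9.90 with Y-27632 and 8.39 with DMSO, and 7.84 with Mkl1 siRNA and 7.34 with Control siRNA. It stood 1.51 higher with Y-27632 than with DMSO, and Control siRNA was itself at -1.05 against DMSO. Over the list, 9 of 19 genes stood above the control in each treatment comparison, with medians of -0.0024 for Y-27632 and -0.012 for Mkl1 siRNA.

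Of 19 analysed TGF-beta target genes, 17 stood below Control siRNA with Mkl1 siRNA (median -0.37), beside 49.8% of all genes and 8 of 9 fibroblast or preadipocyte markers (median -0.20), whose part was not tested. When a gene's probe sets were averaged, the list median with Mkl1 siRNA was -0.62. Control siRNA itself stood above DMSO for 11 of the 19 (median 0.18) and for 8 of those 9 markers (median 0.17). Nox4, an oxidase that TGF-beta induces, had 7.24 with Mkl1 siRNA and 9.48 with Control siRNA, a difference of -2.24. Control siRNA was the high array for Nox4, 2.02 above DMSO, and Mkl1 siRNA stood at -0.22 against DMSO. The metalloproteinase inhibitor Timp1 differed by -1.27 and Col1a1, a chain of type I collagen, by -1.05; against DMSO they stood at -0.65 and -1.38. With Y-27632 11 of the 19 stood below DMSO (median -0.06), and Ccn2, a matrix protein, at -1.43 and Tagln, an actin-binding protein, at -1.25 were 2-fold lower. Ccn2, Tagln and Acta2 are also well-known targets of MRTF and SRF, as background, so the list is not specific to TGF-beta.

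BMP target genes besides Id1 were led by Id2, another inhibitor of helix-loop-helix factors and, on the used probe sets, the only one of the 10 analysed at 2-fold in a treatment comparison. For Id4, of the same list, the used probe set gave 0.65 with Mkl1 siRNA, but the mean of its 3 probe sets was 1.63. Id2 had 8.38 with Y-27632 and 7.12 with DMSO, and 9.78 with Mkl1 siRNA and 8.47 with Control siRNA. DMSO was the lowest array and Mkl1 siRNA the highest, and Id2 stood 1.26 higher with Y-27632 and 1.31 higher with Mkl1 siRNA than with their own controls. All 3 probe sets were higher in both, by 0.80 to 1.26 and by 1.13 to 1.31, but Control siRNA also stood 1.35 above DMSO, and Y-27632 was at -0.09 against Control siRNA. The list was split evenly, with 5 of 10 genes above the control in each treatment comparison, at a median of 0.03 for Y-27632 and of 0.14 for Mkl1 siRNA. Neither median kept its sign under other settings, running from -0.17 to 0.38 for Y-27632 and from -0.05 to 0.66 for Mkl1 siRNA.

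**Figure D4:**
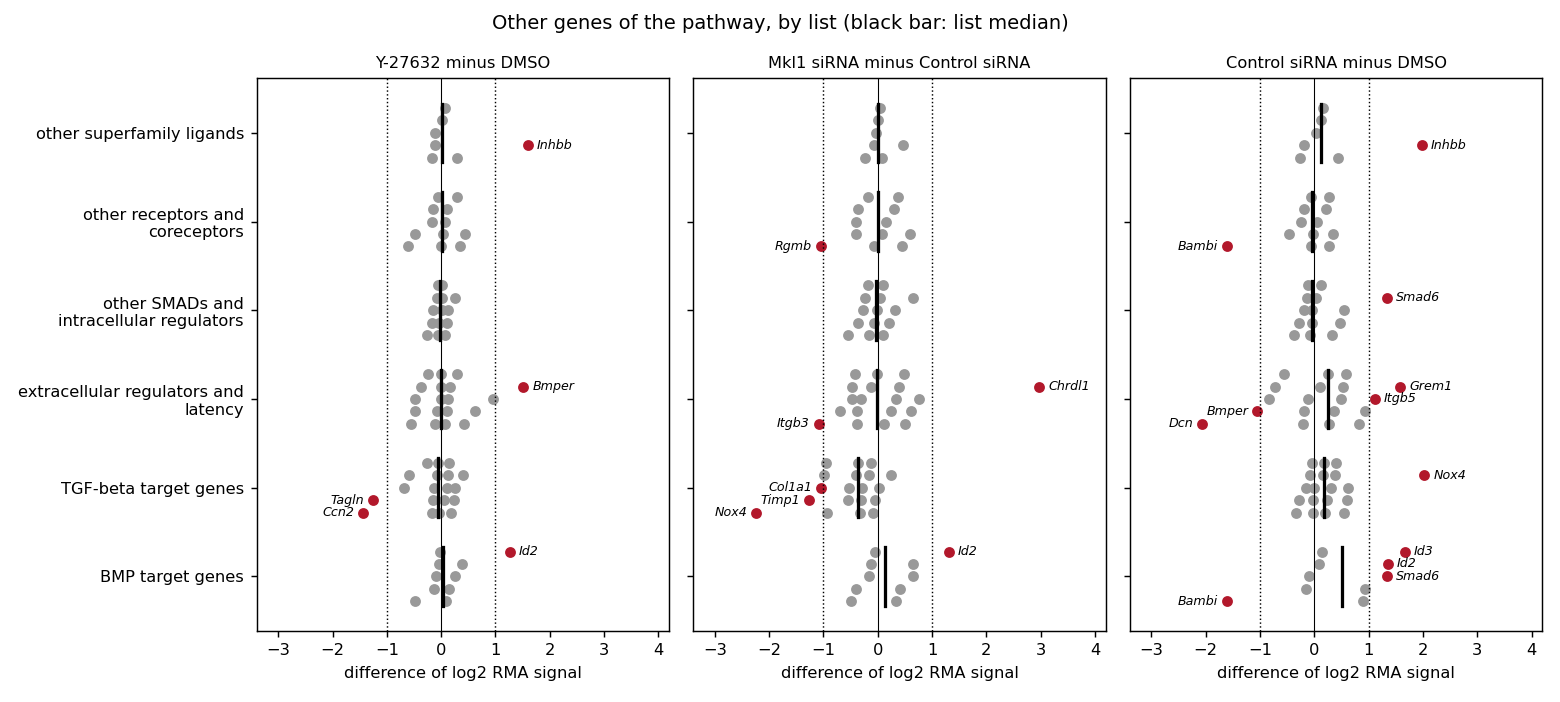
Difference of log2 RMA signal (x axis) of the analysed genes of the 6 other pathway lists (rows) in 3 panels, with Y-27632 set against DMSO (left), Mkl1 siRNA set against Control siRNA (middle) and Control siRNA set against DMSO (right); each point is a gene, red and named from 2-fold (dotted lines), and the black bar is the list median. The median of TGF-beta target genes is at -0.37 with Mkl1 siRNA, and that of BMP target genes at 0.51 between the control arrays.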

How the data were processed

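Single-colour Affymetrix mouse arrays were read for total RNA of 4 groups of DFAT cells, 1 array each, grouped by the sample titles. The authors deposited a log2 signal for each probe set, and the submitters' processing notes name RMA; the sources used here give neither its version, nor the probe set definition, nor which arrays were normalised jointly. That the scale is log2 was judged from the range of the values. Quantile normalisation hides differences in total RNA, and RMA compresses differences near background. Of 45101 probe sets, 34958 had 1 platform symbol, 932 several and 9211 none; names were updated by gene number through RefSeq's GRCm38.p6 table (34754 found), and 64 control probe sets were left out. No test fits 1 array per group, so differences, counts from 2-fold and shares of all 11600 analysed genes are given. It is not known whether the groups came from separate cultures. The members and lists were chosen with earlier results of these data known. Named genes were the members, list genes from 2-fold in a treatment comparison (otherwise up to 3 per list), Mrtfa, Mrtfb and Srf, and the 2 genes nearest in pattern to 3 members; Smad1 to Smad5 and the genes under other observations were chosen after their values were seen. Marker lists for fibroblasts, adipocytes, leukocytes, endothelium, myoblasts and osteoblasts were checked; of 4 osteoblast genes, Sp7 was the 1 analysed and differed by -0.29 with Y-27632 and 0.03 with Mkl1 siRNA. Alternatives were another probe set rule, filter, scaling (loess span 0.3 in statsmodels 0.14.6), threshold and control array. Calculations were tested on simulated data in Python 3.11.15.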

Additional observations from a re-analysis of the deposited data

How the results depend on the processing

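The 0 members at 2-fold with Y-27632 stayed 0 in both directions under the alternatives other than the 1.5-fold threshold, which counted 2 higher. With Mkl1 siRNA, the member 2-fold higher (Id1) gave a count of 0 after dropping probe sets with _s_at, _x_at or _a_at names, since Id1 has no other probe set, and 0 after loess, where Id1 stood at 0.996. The member 2-fold lower (Inhba) gave 0 with the mean of all probe sets (-0.70) and 0 against the other control array (-0.83). Of the other pathway genes, 3 higher and 2 lower with Y-27632 became 5 and 5 at 1.5-fold, and 8 were lower against Control siRNA; 2 higher and 5 lower with Mkl1 siRNA became 7 and 9 at 1.5-fold, and 9 were higher against DMSO. Against the other control array the Y-27632 difference changed sign for Id2 (-0.089) and Inhbb (-0.38). The cause of these shifts was not tested. Of 120 member values under alternatives, 4 changed sign, all with the other control array: Tgfb1 and Tgfb3 with Mkl1 siRNA, and Tgfb2 and Id1 with Y-27632. Many of the 120 could hardly change, because the filters leave a member's difference as it is and subtracting the median moves it little. So 4 of 120 does not measure how firmly the signs hold. The 4 are better set against the exchange of the control array alone, with 9 members in each treatment comparison. The median of TGF-beta target genes with Mkl1 siRNA (-0.37) ran from -0.62 (mean of all probe sets) to -0.32 (no filter), and was -0.56 without _s_at, _x_at and _a_at probe sets. That of BMP target genes with Mkl1 siRNA (0.14) was -0.054 with no filter, 0.34 with the mean of all probe sets, 0.60 against DMSO and 0.66 with the filter at the 75th percentile. With Y-27632 (0.03) it was -0.17 against Control siRNA, -0.03 without those probe sets and 0.38 with the stricter filter. The medians of the other 4 lists lay within 0.05 of 0 and each changed sign under 1 or more settings, except that of receptors with Mkl1 siRNA. Signals near the filter, as for Tgfb1 and Bmp4, limit what can be read. No paired analysis was possible because each group has 1 array, which also leaves no array to leave out.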

Other observations

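Several genes of the BMP branch differed between the control arrays; they were picked after their values were seen. Id3, another Id family member, had 10.37 with Y-27632 and 9.99 with DMSO, and 12.07 with Mkl1 siRNA and 11.66 with Control siRNA, so Control siRNA stood 1.67 above DMSO. Grem1, a secreted BMP antagonist, stood 1.59 higher with Control siRNA than with DMSO and 0.48 higher with Mkl1 siRNA than with Control siRNA. Bambi, a decoy receptor without kinase activity, had 5.85 with Mkl1 siRNA and 6.25 with Control siRNA, against 7.37 with Y-27632 and 7.86 with DMSO, and Control siRNA was at -1.62 against DMSO. Of 10 analysed BMP target genes 7 stood above DMSO with Control siRNA (median 0.51), beside 48.5% of all genes.

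Id4 was measured differently by its 3 probe sets. The used one differed by 0.65 with Mkl1 siRNA against Control siRNA, while the highest gave 2.41, and against DMSO they ran from 1.54 to 4.71. The used one, at 5.99 with DMSO and 7.53 with Mkl1 siRNA, had the highest mean signal. The others therefore lay lower on average, which limits how their differences can be read. Fst, which binds and neutralises activin, had 8.28 with Y-27632 and 8.83 with DMSO, and 10.41 with Mkl1 siRNA and 9.65 with Control siRNA; its 2 probe sets gave -0.68 and -0.55 with Y-27632 and 0.75 and 0.87 with Mkl1 siRNA. Dcn, a proteoglycan that binds TGF-beta, had 13.56 with Y-27632 and 12.62 with DMSO, and 11.16 with Mkl1 siRNA and 10.55 with Control siRNA, with Control siRNA at -2.07 against DMSO on this probe set and -0.56 on its other. Gdf5, a BMP family ligand, lay below the filter and differed by 1.15 with Mkl1 siRNA.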
